A study of Arabidopsis thaliana with 12 samples.

Results

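EXPA7 (locus AT1G12560), EXPA18 (AT1G62980) and GH9C1 (AT1G48930) encode wall-loosening proteins that act in root hair cells. They were chosen by name, as the root hair expansins and a root hair endoglucanase, with earlier results of these data known. Each had 1 named probe set among the 22746 non-control probe sets of the ATH1 array. These 3 genes were followed over 12 arrays, 3 for each of 4 genotypes, on RNA from roots of 7-day-old Arabidopsis thaliana seedlings. Col-0 and Col-3 were the wild types. The line ara1OX holds the transgene 35S:Ara1YFP in Col-0, and ara1/2mut is mutant for ARABIDILLO-1 and ARABIDILLO-2, with Col-3 as its background. The 35S promoter is active in most plant cells, and the labels do not say how many independent lines stand behind ara1OX or ara1/2mut. The labels number the replicates without saying whether they came from separate cultures, so the p-values rest on a spread among these 3 arrays per group that may be technical only. All 4 groups shared 1 regime. Seed first spent 2 days at 4 °C, and plants then grew at 24 °C on 0.5-strength medium with 1% agar under days of 16 h light and 8 h dark.

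A root hair is a single epidermal cell that grows at its tip, and its wall has to yield locally while it stays closed elsewhere. Alpha-expansins loosen the contacts between cellulose and other wall polymers without cutting them, and EXPA7 and EXPA18 are known as the members of that family made in hair-forming cells. Lowering EXPA7 has been reported to shorten root hairs. GH9C1 belongs to glycosyl hydrolase family 9, whose enzymes cut beta-1,4-glucan chains, and to the class of that family that carries a carbohydrate-binding module. The ARABIDILLO proteins carry an F-box and Armadillo repeats and are known as promoters of lateral root branching. The question here is whether raising or removing them goes with a different level of these hair wall genes.

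All 3 probe sets gave signals between 159 and 422 on the 12 arrays, above the signal of 22.4 used as a filter on dim probe sets. No 2 arrays held identical values, and the correlation between arrays lay between 0.885 and 0.976 across probe sets. The labelled tissue could be checked only in part. Among 40 other root hair genes listed, probe sets of 3 were named and those of 2 exceeded the filter, and of 6 shoot genes 2 were named. The summed signal of the 2 shoot genes, RCA and LHCB4.1, ran from 152 to 221 on the Col-0 arrays, from 170.3 to 230.2 for ara1OX, from 161 to 239 for Col-3 and from 186 to 339 for ara1/2mut. Of the listed markers of root cap and stele none was named, so their levels are not analysed here. Neither ARABIDILLO gene had a named probe set, so the altered genes themselves are not analysed here either.

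EXPA7 stood highest in ara1OX. Its signal was 204, 221 and 205 on the Col-0 arrays of replicates 1, 2 and 3, and 291, 266 and 255 on those of ara1OX. It was 232, 159 and 224 in Col-3, and 208, 198 and 265 in ara1/2mut. Every ara1OX array therefore lay above every Col-0 array, while Col-3 and ara1/2mut overlapped each other and Col-0. The means (± SD, n = 3) were 209.9 ± 9.50 for Col-0 and 271 ± 18.7 for ara1OX, and 205 ± 40.3 for Col-3 and 224 ± 35.7 for ara1/2mut. The spread in both groups of Col-3 background was wider than in those of Col-0 background, and 1 low array, Col-3 replicate 2, made most of that of Col-3.

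EXPA18, the second hair expansin, was highest in ara1OX and lowest in Col-3. Its signal was 227, 238 and 318 in Col-0, and 344, 263 and 318 in ara1OX. It was 207, 187 and 207 in Col-3, and 247, 203 and 261 in ara1/2mut. The 3 Col-3 arrays lay below every Col-0 and every ara1OX array, whereas ara1OX and Col-0 overlapped. The means (± SD, n = 3) were 261 ± 49.6 for Col-0 and 308 ± 41.2 for ara1OX, and 200.4 ± 11.7 for Col-3 and 237 ± 30.5 for ara1/2mut. The ara1OX arrays also lay above all ara1/2mut arrays, by the narrow gap between 263 and 261.

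GH9C1, the endoglucanase, ranked the genotypes as EXPA7 did. Its signal was 274, 249.6 and 313 in Col-0, and 356, 287 and 422 in ara1OX. It was 282, 191 and 261 in Col-3, and 270.0, 270.1 and 362 in ara1/2mut. Only ara1OX and Col-3 were fully separate, and all other pairs of groups overlapped. The means (± SD, n = 3) were 279 ± 31.8 for Col-0 and 355 ± 67.8 for ara1OX, and 245 ± 47.4 for Col-3 and 301 ± 52.9 for ara1/2mut. The highest value, on ara1OX replicate 3, came from the array whose spiked-in hybridization controls were also the highest of the 12, at a mean log2 signal of 10.81 against 7.82 to 9.55 on the others. The part of this in the GH9C1 value was not tested.

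**Figure D1:**
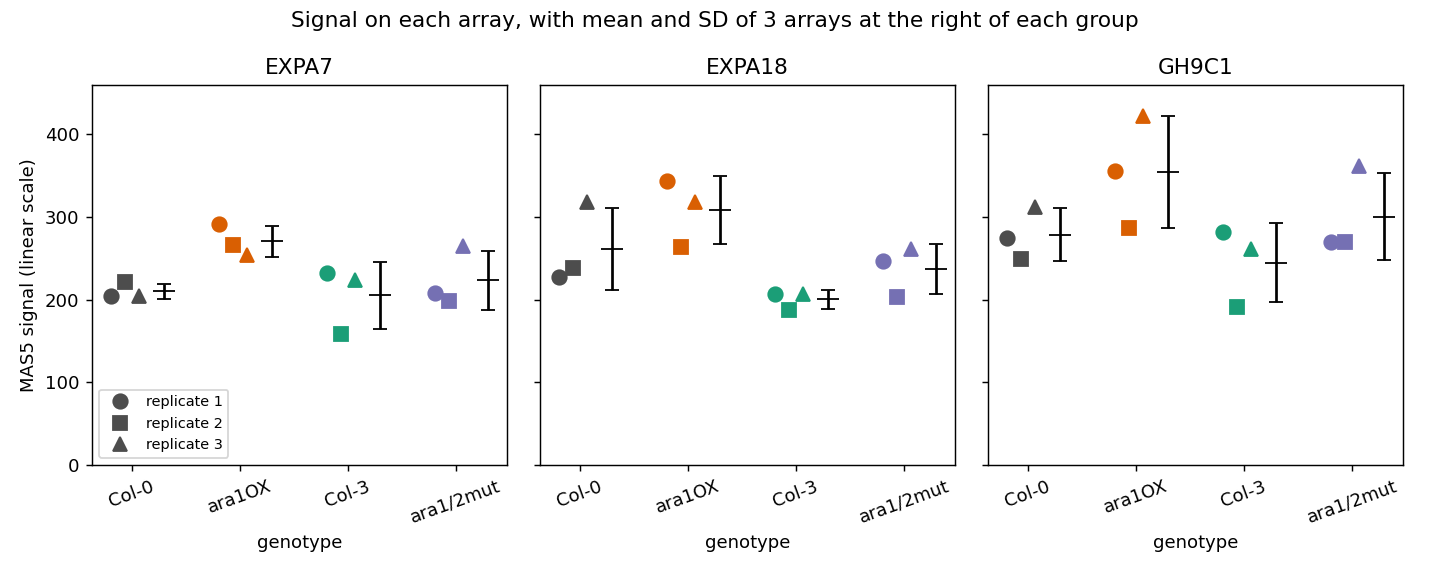
MAS5 signal on a linear scale from 0 (vertical) for EXPA7, EXPA18 and GH9C1 on each of the 12 arrays by genotype (horizontal). Marker shapes give the replicate number, and the bar at the right of each group is the mean ± SD of 3 arrays. The ara1OX arrays of EXPA7 (255 to 291) lie above all Col-0 arrays (204 to 221), and Col-3 replicate 2 is the lowest array of the 12 for each gene.

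Whether any genotype differed was asked first, with limma's moderated F test over the 4 groups. None of the 3 genes passed, where 0.044% of all 13648 probe sets did. The adjusted p was 0.779 for EXPA7, 0.562 for EXPA18 and 0.750 for GH9C1. EXPA18 had the smallest unadjusted p, 0.0172, a level below 0.05 that 7.03% of all probe sets reached. The spread within groups was not unusual. The residual SD on the log2 scale was 0.20 for EXPA7, 0.20 for EXPA18 and 0.25 for GH9C1, against a median of 0.28 over the probe sets tested.

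ara1OX was compared with Col-0 to ask what excess ARABIDILLO-1 goes with. All 3 genes had higher values in ara1OX, and none passed the test, where 0.022% of all probe sets were called. EXPA7 was 1.29-fold higher, with a log2 difference of 0.37 (SE 0.17, 95% interval 0.0022 to 0.73) and a limma adjusted p of 0.774. Its unadjusted p was 0.0488, and 6.43% of all probe sets had one under 0.05. Its groups did not overlap, as was the case in the same direction for 4.87% of all probe sets. GH9C1 had a log2 difference of 0.34 (SE 0.19, interval -0.071 to 0.74, adjusted p 0.827) and EXPA18 one of 0.25 (SE 0.17, interval -0.11 to 0.61, adjusted p 0.854). Over all probe sets 44.6% of the differences were above 0. Without ara1OX replicate 3 the GH9C1 difference was 0.20, and the EXPA18 difference ran from 0.15 without Col-0 replicate 1 to 0.40 without Col-0 replicate 3. In a fit with array weights the differences were 0.12 for EXPA18, 0.20 for GH9C1 and 0.34 for EXPA7. That fit gave ara1OX replicate 2 a weight of 2.17, against 0.51 and 0.50 for replicates 1 and 3. Replicate 2 had the lowest ara1OX signal for EXPA18 and GH9C1.

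ara1/2mut was compared with Col-3 to ask what the loss of both ARABIDILLO genes goes with. Here too the 3 values were above 0, as were 51.6% of all probe sets, and none passed, where 0% of all probe sets were called. At an unadjusted p under 0.05 there were also 0 of the 3, against 3.56% of all probe sets. GH9C1 had a log2 difference of 0.30 (SE 0.19, interval -0.11 to 0.71), EXPA18 one of 0.24 (SE 0.17, interval -0.12 to 0.59) and EXPA7 one of 0.13 (SE 0.17, interval -0.23 to 0.50), each with an adjusted p of 0.999. The groups overlapped for all 3, while for 5.08% of all probe sets every ara1/2mut array lay above every Col-3 array. Single arrays of both groups carried much of this. Without Col-3 replicate 2 the difference was 0.13 for GH9C1 and -0.04 for EXPA7, and without ara1/2mut replicate 3 it was 0.16 and 0.0069, while no single array turned that of EXPA18. On Col-3 replicate 2 the GAPDH 3' to 5' ratio, a sign of RNA quality, was 0.984, against 0.753 and 0.780 on the other Col-3 arrays. The arrays of the other genotypes ran from 0.791 to 1.16, so 0.984 lay within their range. The part of this ratio in the 3 genes was not tested.

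The gain and the loss of ARABIDILLO thus gave values on the same side of 0 for these genes, and the difference between the 2 changes was tested itself. It was 0.23 (SE 0.24) for EXPA7, 0.013 (SE 0.24) for EXPA18 and 0.035 (SE 0.27) for GH9C1, with adjusted p-values of 0.926, 0.996 and 0.995. That of EXPA7 ran from 0.13 without Col-3 replicate 1 to 0.41 without Col-3 replicate 2, and those of the others turned with single arrays. The intervals ran from -0.28 to 0.74, from -0.50 to 0.52 and from -0.54 to 0.61, so they leave room for a clear difference either way. Of all probe sets 0.0147% were called and 5.3% had an unadjusted p under 0.05, and none of the 3 genes was among them.

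The wild types were compared because each altered line stands against its own. Col-3 had lower values than Col-0 for all 3 genes (49.6% of all probe sets were higher), and none passed, where 0% of all probe sets were called. EXPA18 had a log2 difference of -0.37 (SE 0.17, interval -0.73 to -0.0073), a 0.776-fold level, with an adjusted p of 0.956. Its unadjusted p was 0.0460, a level below 0.05 reached by 5.08% of all probe sets, and it was one of the 7.1% whose Col-3 arrays lay below all Col-0 arrays. Without Col-0 replicate 3 its difference was -0.22. GH9C1 had -0.20 (SE 0.19) and EXPA7 -0.05 (SE 0.17), which became -0.03 and 0.12 without Col-3 replicate 2. Fewer hair cells and less RNA of these genes per hair cell cannot be told apart in RNA of whole roots, here or in the other comparisons.

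Across the order of the genotypes, ara1OX was highest for all 3 genes, also in each of the 12 fits that left out 1 array. Col-3 was lowest for EXPA18 and GH9C1 in all 12, and for EXPA7 in 11, the exception being without Col-3 replicate 2. The share of all probe sets with these highest and lowest groups was not computed. The 3 genes are correlated over the arrays, so their orders are not independent of each other. Between them lay ara1/2mut above Col-0 for EXPA7 and GH9C1, and Col-0 above ara1/2mut for EXPA18. These 2 neighbours differed by 0.08 (SE 0.17), 0.10 (SE 0.19) and -0.13 (SE 0.17), and 0 of the 3 genes passed in limma, as did 0% of all probe sets. At an unadjusted p under 0.05 there were also 0 of the 3, against 3.56% of all probe sets. The order of these 2 turned for EXPA7 and GH9C1 without ara1/2mut replicate 3 and for EXPA18 without Col-0 replicate 3. The next step up, from ara1/2mut to ara1OX, was 0.28 (SE 0.17) for EXPA7, 0.38 (SE 0.17) for EXPA18 and 0.24 (SE 0.19) for GH9C1. For GH9C1 it was 0.10 without ara1OX replicate 3 and 0.38 without ara1OX replicate 2 or ara1/2mut replicate 3. None of these passed (adjusted p 0.473 to 0.712), where 0.154% of all probe sets did. EXPA18 had an unadjusted p under 0.05, as did 9.94% of all probe sets, and was the one gene of the 3 whose groups did not overlap, as for 5.47% of all probe sets in that direction.

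The ends of the order, ara1OX and Col-3, differ in both background and transgene, so they answer no question about ARABIDILLO alone. They were the one pair that did not overlap for any of the 3 genes, as in the same direction for 7.88% of all probe sets. The log2 difference was 0.61 (SE 0.17, a fold of 1.53) for EXPA18, 0.54 (SE 0.19, a fold of 1.45) for GH9C1 and 0.42 (SE 0.17, a fold of 1.34) for EXPA7. With adjusted p-values of 0.202, 0.335 and 0.408 none passed, where 0.234% of all probe sets were called. All 3 had an unadjusted p under 0.05, against 10.4% of all probe sets. As the ends of the order, this pair is the one farthest apart for these same values. Setting the 3 genes against the shares of all probe sets therefore favours them, and their correlation means that they do not count as 3 separate results. Without Col-3 replicate 2 the difference was 0.24 for EXPA7 (limma unadjusted p 0.166), and with array weights it was 0.30 for GH9C1 (limma unadjusted p 0.0885).

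**Figure D2:**
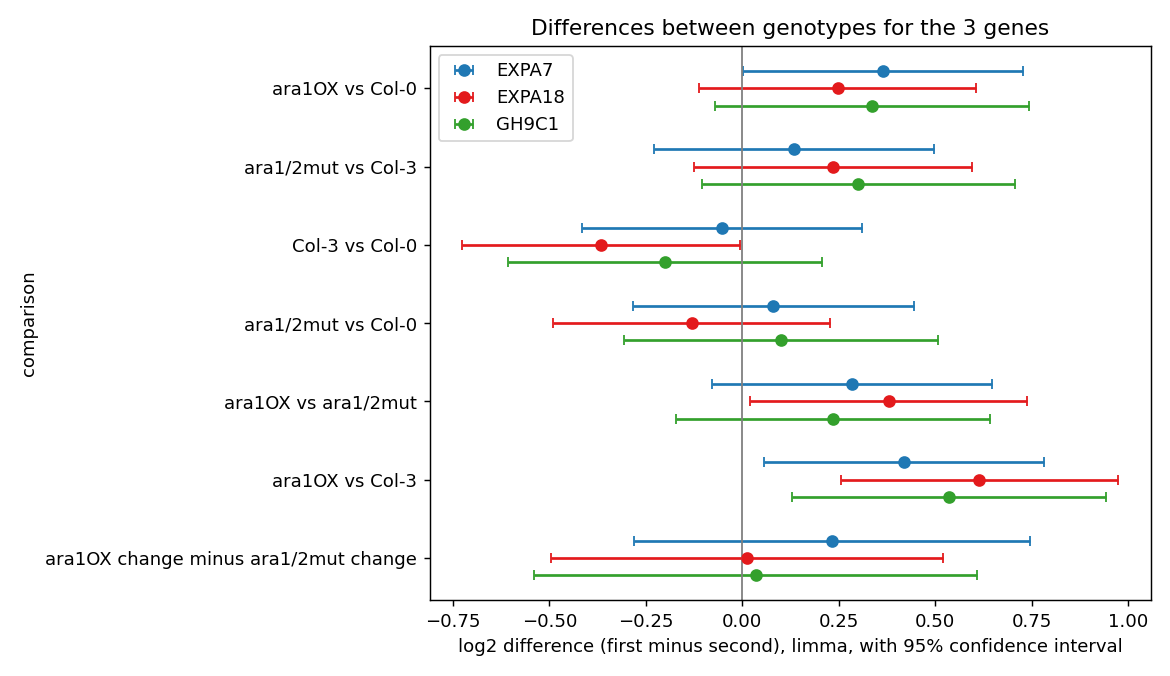
Log2 difference between genotypes (horizontal, first minus second, with the 95% interval of the limma fit) for EXPA7, EXPA18 and GH9C1 in 7 comparisons (vertical). Between an altered line and its own wild type the values lie from 0.13 to 0.37, and the intervals of all 3 genes lie above 0 only for ara1OX against Col-3, where the adjusted p was 0.202 or more.

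The 3 transcripts varied together over the 12 arrays, differences between genotypes included. The permutations ignored the 4 groups, so their p-values do not set differences between genotypes or between whole arrays apart from a relation of the genes. EXPA18 and GH9C1 had a Pearson r of 0.802 (permutation p 0.00114, adjusted over the 3 pairs 0.00342) and a Spearman rho of 0.769 (permutation p 0.00465, adjusted 0.0139) over the 12 arrays. Without the 2 arrays farthest from the median of EXPA18, r was 0.839. EXPA7 and GH9C1 had an r of 0.791 (permutation p 0.00284, adjusted 0.00426) and a rho of 0.650 (permutation p 0.0257, adjusted 0.0257). EXPA7 and EXPA18, the 2 expansins, had the weakest relation, with an r of 0.663 (permutation p 0.0185, adjusted 0.0185) and a rho of 0.657 (permutation p 0.0226, adjusted 0.0257).

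Both relations of EXPA7 rested on its 2 extreme arrays, Col-3 replicate 2 and ara1OX replicate 1. Without them r was 0.575 with GH9C1 (permutation p 0.0757) and 0.340 with EXPA18 (permutation p 0.329). After each array was set against the mean of its group, so that the genotypes no longer counted, r was 0.679 for EXPA18 and GH9C1, 0.642 for EXPA7 and GH9C1 and 0.403 for EXPA7 and EXPA18. No test was run on these values. The points share the array and its scaling, which touch all probe sets of an array. The mean of the 3 genes, each centred on its own log2 mean, ran from -0.50 on Col-3 replicate 2 to 0.38 on ara1OX replicate 1. The log2 ratio of EXPA7 to GH9C1 held an SD of 0.031 in Col-3 and 0.043 in ara1/2mut (n = 3 each), against 0.22 in Col-0 and 0.32 in ara1OX. In the Col-3 background these 2 genes thus moved almost in parallel, the low array included. The other ratios did not hold so narrowly there. The SD was 0.22 for EXPA7 to EXPA18 and 0.21 for EXPA18 to GH9C1 in Col-3, and 0.14 and 0.18 in ara1/2mut. Whether the spread of a ratio differs between backgrounds was not tested.

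**Figure D3:**
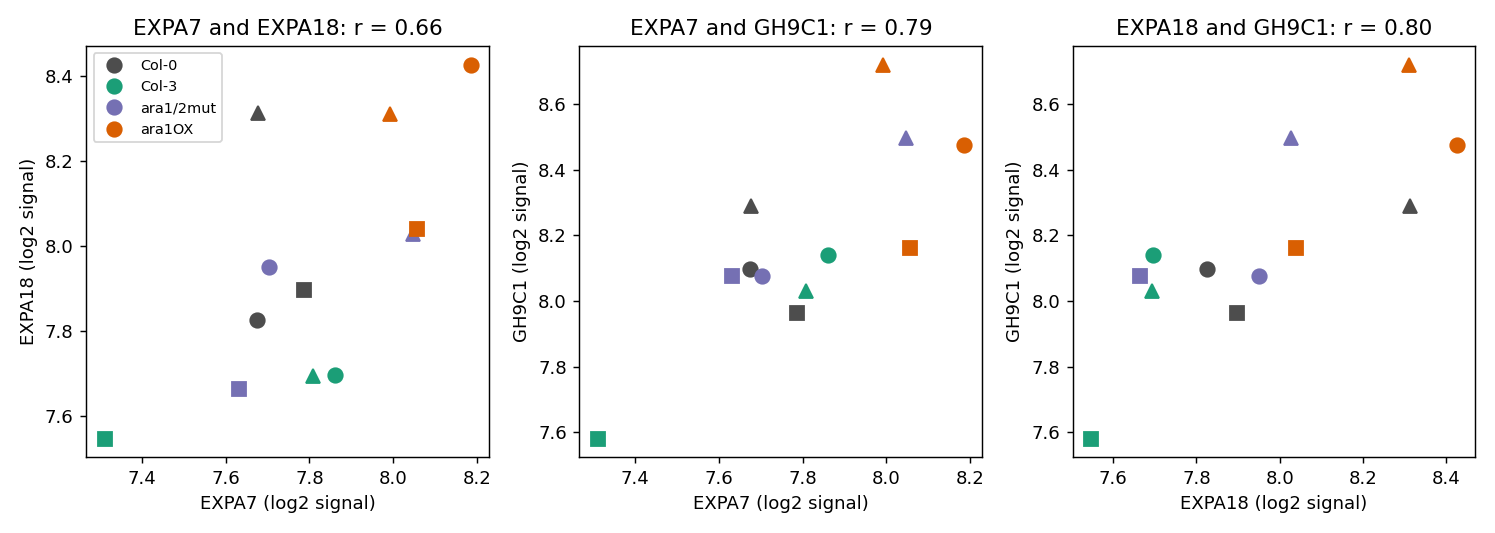
Log2 MAS5 signal of 1 gene against another, 1 point per array, coloured by genotype and shaped by replicate as in the plot of signals by array. EXPA18 and GH9C1 give an r of 0.80, and Col-3 replicate 2 sits at the low left corner of each panel.

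Other genes were ranked by how closely they followed the mean of the 3, by Pearson r over the 12 arrays among 7318 named probe sets past the filter. AT1G30870 came first, with an r of 0.958, and with 0.933 to EXPA18, 0.888 to GH9C1 and 0.795 to EXPA7. Its signal (± SD, n = 3) was 698 ± 98.5 for Col-0 and 869 ± 85.2 for ara1OX, and 567 ± 88.0 for Col-3 and 622 ± 100.05 for ara1/2mut. It was highest in ara1OX and lowest in Col-3, which choosing genes by their r to the 3 favours. AT4G25790 followed with 0.898, and then AT5G58340, AT3G07070, AT4G13100, AT5G04960, AT2G45180, FU, AT2G28410 and AT3G49960 with 0.865 down to 0.848. FU encodes the FUSED kinase, known for its part in cytokinesis, and the table used for names gives no function for the other 9.

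None of these 10 genes passed between an altered line and its own wild type, between the wild types or for the difference between the 2 changes, with adjusted p-values of 0.488 or more. The pair that lies farthest apart for the 3 genes the ranking was built on is ara1OX against Col-3. There AT3G49960 was called, with a log2 difference of 1.08 (SE 0.19, limma adjusted p 0.0252). The other 9 were not, with adjusted p-values of 0.180 to 0.466, and 0.234% of all probe sets were called. All 10 had an unadjusted p under 0.05 in that pair, against 10.4% of all probe sets. Choosing genes that follow the 3 favours such differences, so they are no separate evidence. AT3G07070 had a log2 difference of 0.83 in ara1OX against Col-0, from a signal of 51.8 ± 1.59 to 92.7 ± 12.7, and AT3G49960 one of -0.66 in Col-3 against Col-0. The ranking used the same 12 arrays as the values it orders and carries no test, and it hung on single arrays. Of the 10 genes only 2 stayed in the first 10 without Col-3 replicate 2, and 4 without ara1OX replicate 1.

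The other members of the 2 enzyme families give the setting. Named probe sets existed for 8 of 22 other alpha-expansin genes, and those of 4 exceeded the filter, EXPA4, EXPA15, EXPA9 and EXPA8. None of the 4 was called in any pair of genotypes, and 0 had an unadjusted p under 0.05 in limma. In ara1OX against Col-0 their median log2 difference was -0.12, against -0.03 over all probe sets. EXPA4 had -0.34 (SE 0.22), EXPA15 -0.45 (SE 0.45), EXPA9 0.09 (SE 0.23) and EXPA8 0.81 (SE 0.74). In ara1/2mut against Col-3 all 4 lay below 0, with a median of -0.35 against 0.01 over all probe sets. There EXPA4 had a signal of 582 ± 209 in ara1/2mut and 677 ± 73.4 in Col-3 (SD, n = 3), and EXPA15 one of 273 ± 165 and 310.0 ± 57.8. The hair expansins were thus on the other side of 0 from these 4 in the mutant, though no value passed and the spread was wide. That of EXPA7 hung on single arrays, with -0.04 without Col-3 replicate 2 and 0.0069 without ara1/2mut replicate 3. The summed signal of the 8 named other alpha-expansins was 620, 988 and 1391 on ara1/2mut replicates 1, 2 and 3, against 1081 to 1192 in Col-3. In Col-3 against Col-0 the median was -0.02. EXPA20 and EXPA16 did not pass the filter, with mean signals from 13.3 to 29.4 and from 13.4 to 16.8 over the 4 groups.

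Named probe sets existed for 14 of 24 other endoglucanase genes of family 9. Those of 5 exceeded the filter, and again none was called in any pair of genotypes and 0 had an unadjusted p under 0.05 in limma. GH9C2, of the same class as GH9C1, had log2 differences of -0.43 (SE 0.25) in ara1OX, -0.12 (SE 0.25) in ara1/2mut and -0.39 (SE 0.25) between the wild types. Its signal (± SD, n = 3) was 362 ± 74.3 for Col-0 and 267 ± 32.5 for ara1OX, and 273 ± 40.02 for Col-3 and 264 ± 99.1 for ara1/2mut, so Col-0 rather than ara1OX was highest. GH9A3, a relative of the membrane-anchored KORRIGAN cellulase, had 0.66 (SE 0.34) in ara1/2mut, at signals of 22.5 ± 5.12 in Col-3 and 35.2 ± 6.07 in ara1/2mut. GH9B7, GH9B13 and GH9B8 lay between -0.39 and 0.08 in all 3. The medians of the 5 were -0.02 in ara1OX, -0.12 in ara1/2mut and -0.06 between the wild types, against -0.03, 0.01 and -0.0027 over all probe sets. GH9B18 did not pass the filter, with mean signals from 11.4 to 24.3.

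**Figure D4:**
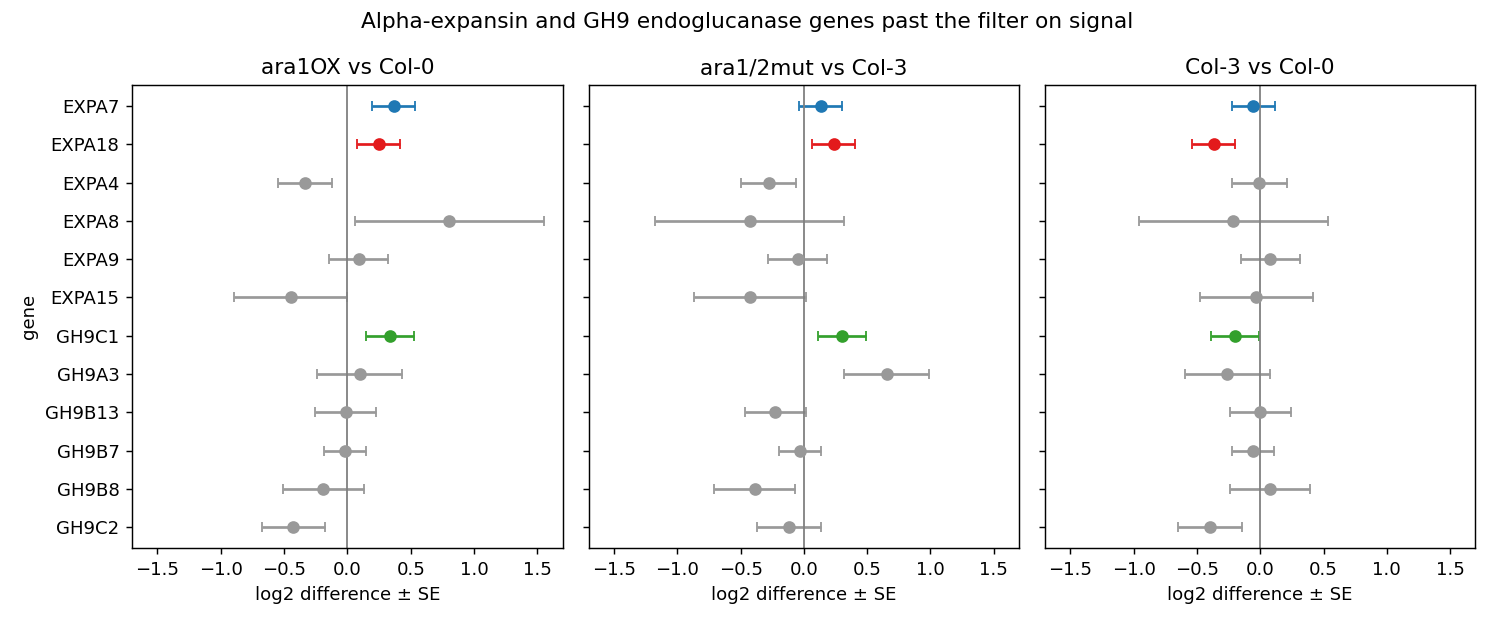
Log2 difference ± SE (horizontal) for the alpha-expansin and family 9 endoglucanase genes past the filter (vertical) in 3 comparisons, with EXPA7, EXPA18 and GH9C1 in colour and the other genes in grey. In ara1/2mut against Col-3 the 4 other expansins lie below 0 and EXPA7 and EXPA18 at 0.13 and 0.24, and no gene passed the test in any panel.

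The other listed root hair genes gave little more. AT4G26010 had log2 differences of 0.26 (SE 0.16) in ara1OX against Col-0, 0.03 (SE 0.16) in ara1/2mut against Col-3 and -0.26 (SE 0.16) between the wild types. Its signal (± SD, n = 3) was 1126 ± 77.0 for Col-0 and 1352 ± 81.6 for ara1OX, and 943 ± 126 for Col-3 and 970 ± 184 for ara1/2mut, the same highest and lowest groups as the 3 genes. SCN1, whose product confines hair outgrowth to 1 site per cell, had -0.12 (SE 0.13), 0.26 (SE 0.13) and -0.27 (SE 0.13), so its lowest group was also Col-3 but its highest was not ara1OX. Of these 2 genes 0 were called in limma in any of these 3 comparisons, and 0 had an unadjusted p under 0.05. In ara1OX against Col-3 AT4G26010 had a log2 difference of 0.53 (SE 0.16, limma adjusted p 0.241), and in ara1OX against ara1/2mut one of 0.50 (SE 0.16, adjusted p 0.311). Both had an unadjusted p under 0.05, as did 10.4% and 9.94% of all probe sets. SCN1 had 0.16 (SE 0.13) and -0.10 (SE 0.13) in these 2 pairs, with limma unadjusted p-values of 0.266 and 0.452. XTH26, a xyloglucan-modifying enzyme gene, and TRY, the 1 named gene of 10 that pattern the epidermis, were below the filter, with mean signals from 7.47 to 26.4 and from 5.44 to 17.6. JKD, the only named gene among the 5 markers of endodermis and cortex, had log2 differences of -0.18 (SE 0.36) in ara1OX, 0.47 (SE 0.36) in ara1/2mut and -0.13 (SE 0.36) between the wild types, and did not pass.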

How the data were processed

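The authors deposited 1 table of intensities on a linear scale for 12 ATH1 arrays, and the submitters' processing notes name MAS5. The sources used here state neither its version nor detection calls. Every array had a trimmed mean of 100.0 after leaving out 2% at each end, so a shift common to every transcript is removed.

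Groups and replicate numbers came from the sample titles. Values were taken as log2 without further normalization. Of 22810 probe sets, 64 controls and those with a mean log2 signal below the 40th percentile (4.49) were left out, which kept 13648. Names came from the platform's gene table through the gene table of TAIR10.1, with 13436 probe sets matched to 1 gene. All arrays entered 1 linear model in limma 3.58.1 (R 4.3.3) with a variance trend. Residual degrees of freedom were 8, and 7.49 came from the prior. All tests are two-sided, with Benjamini-Hochberg adjustment over all probe sets kept and a threshold of 0.05. Correlations used 100000 permutations (two-sided). The procedure was tested on simulated data. Precision is limited by having 3 arrays per group.

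The 3 genes and the lists were chosen with earlier results of these data known. Genes named beside them are the 10 of highest r and, of each list, up to 6 of highest mean signal. Same-numbered arrays had correlations of their deviations from 0.03 to 0.14 for ara1OX and Col-0, and from 0.096 to 0.26 for ara1/2mut and Col-3. Between the wild types they ran from -0.08 to 0.02. Not all were above 0.1, so the numbers were not taken as pairs in the main fit, and a fit with the replicate number as a block was tried beside it. Sequences of the genes were not used here.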

Additional observations from a re-analysis of the deposited data

How the results depend on the processing

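The settings tried were array weights, the replicate number as a block, leaving out each array in turn, scaling by quantiles or by the median, a pseudocount of 16, filtering nothing or up to the 60th percentile, dropping the variance trend, and fitting only the arrays of the pair compared. The same settings for the other 3 pairs of genotypes (except the last), the fits without 1 array for the correlations and for the ranking were chosen after seeing the data. In 163 recomputed counts, 0 of the 3 genes passed in limma. The smallest adjusted p of all was 0.0771 (EXPA18, ara1OX against Col-3, replicate block). Of 429 recomputed differences 408 kept their direction and 21 turned. With array weights EXPA7 in Col-3 against Col-0 became 0.016, and the difference between the changes of the 2 lines became -0.037 for EXPA18 and -0.023 for GH9C1, while EXPA7 in ara1/2mut against Col-3 became 0.040 and GH9C1 in ara1OX against ara1/2mut 0.080. Leaving out 1 array, the first 3 of these ran from -0.15 to 0.12, from -0.10 to 0.16 and from -0.10 to 0.20. For ara1/2mut against Col-3, EXPA7 ran from -0.041 to 0.23. For ara1/2mut against Col-0, EXPA7 ran from -0.046 to 0.16, EXPA18 from -0.22 to 0.019 and GH9C1 from -0.040 to 0.19. The causes were not tested. The correlation of EXPA7 ran from 0.545 to 0.815 with EXPA18 and from 0.639 to 0.841 with GH9C1, with adjusted permutation p-values of 0.0814 and 0.0812 without ara1OX replicate 1 or Col-3 replicate 2 for the first and of 0.05004 without Col-3 replicate 2 for the second, and that of EXPA18 and GH9C1 from 0.751 to 0.828. With the replicate block EXPA7 in ara1OX kept 0.37 (SE 0.16, adjusted p 0.602), and GH9C1 kept 0.34 with an SE of 0.14 (adjusted p 0.575). The block changed no call of the 3 genes. In ara1OX against Col-0 and in ara1/2mut against Col-3 all 6 arrays correlated best with their own number, a hint from the data only. Counts over all probe sets moved more, from 3 to as many as 17 in ara1OX against Col-0 (block), from 0 to 4 for ara1/2mut against Col-3 and from 6 to 65 over all genotypes (both with array weights), from 0 to 2 between the wild types (without Col-3 replicate 2), from 2 to 0 for the difference of the changes, from 32 to between 2 and 132 in ara1OX against Col-3, from 21 to between 4 and 48 in ara1OX against ara1/2mut, and from 0 to 1 for ara1/2mut against Col-0. With 3 arrays a group, the 95% intervals for a pair of groups reached 0.36 to 0.41 to each side on the log2 scale. That is a fold of 1.28 to 1.33. These intervals are for 1 gene at a time, without adjustment over the probe sets. A larger difference could still go uncalled, as for EXPA18 in ara1OX against Col-3 (a fold of 1.53, limma adjusted p 0.202).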
